A study of Oryza sativa Indica Group with 10 samples.

Results

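Rice seedlings over-expressing OsbZIP48 were compared with seedlings carrying the B4NU vector, by setting the 2 arrays of the first group against the 2 arrays of the second. These are 4 of the 10 arrays of the series, and all probe sets of the rice array other than the manufacturer's controls were included. The seedlings were of the Indica cultivar Pusa Basmati 1, grown in light at 28 °C. The over-expression group is called OE here. Both groups are transgenic: OE carries the OsbZIP48 transgene and B4NU is a vector control. B4NU was taken as its control without a label that pairs the constructs. Arrays of pANDA vector controls and of OsbZIP48 knock-down seedlings, either resembling wild type (KD wild-type-like) or with a lethal phenotype (KD lethal), enter below in the estimate of the spread and in 1 further comparison. The age is 10 days on the samples and 7 days in the design text. The promoter that drives the transgene, the number of independent lines and the number of seedlings per sample are not given in the sources used here.

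OsbZIP48 is a basic leucine zipper protein and a rice relative of HY5. In Arabidopsis, HY5 binds the promoters of many light-responsive genes, accumulates in light and is degraded in darkness through COP1, and seedlings that lack it grow tall in light. It also touches hormone, nutrient and pigment pathways there. The annotation pairs no probe set with OsbZIP48, so the transcript of the over-expressed gene was not analysed here and could not serve as a check of the group labels.

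The tissue is named as whole seedling on the samples, whereas the extraction protocol speaks of roots. Of 10 green leaf markers, 7 were matched and 0 of these were at the floor, and their mean log2 signal was 10.11 and 9.98 on the OE arrays and 10.69 and 10.76 on the B4NU arrays. Of 13 root markers, 11 were matched, with means between 5.13 and 5.62 on the 4 arrays, and 2 of them, SCR1 and PT11, were at the floor on all 4. Of 12 seed storage genes, 7 were at the floor on all 4 arrays. Shoot and root transcripts were both present. The floor here means within 0.5 of the lowest log2 value of an array, a range that held 65.7 to 68.0% of the probe sets on these arrays. In such bulk samples, fewer cells of a type and less RNA per cell cannot be told apart.

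OE replicate 1 stood apart. Across probe sets the B4NU arrays correlated at 0.998 and the OE arrays at 0.950, where probe sets are not independent replicates. Over the 16323 expressed probe sets, whose mean over all arrays lay at least 1 above the lowest value, the median difference from the B4NU mean was -0.55 on OE replicate 1 and 0.09 on OE replicate 2. The SD of the difference between replicates was 0.88 in OE and 0.18 in B4NU. OE replicate 1 was below OE replicate 2 by 1 or more at 5132 of these probe sets and above it by that much at 652. Its control probes also differed: the excess of 3′ signal over 5′ and middle signal, a mean of ubiquitin, GAPDH and cyclophilin probes, was -0.16 on OE replicate 1, 1.62 on OE replicate 2, and 1.08 and 0.91 on the B4NU arrays. The part of RNA quality in the results was not tested. Values are therefore given for each array.

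**Figure D1:**
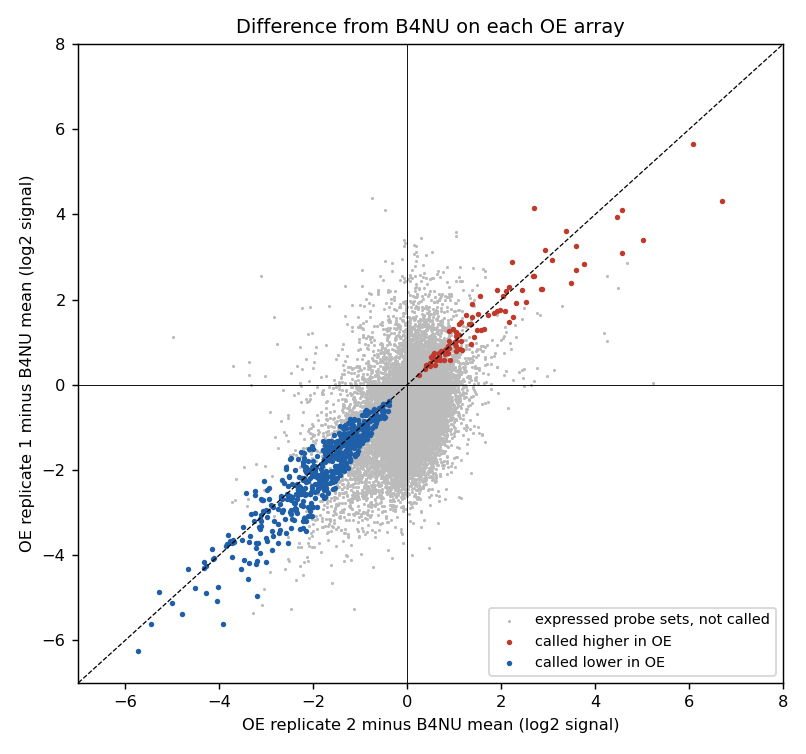
Each point is 1 of the 16323 expressed probe sets, placed by its log2 difference from the B4NU mean on OE replicate 2 (horizontal) and on OE replicate 1 (vertical). Red and blue points passed the test at an adjusted p under 0.05 as higher or lower in OE. Most grey points lie below the dashed line of equality. At 656 of all 802 called probe sets the OE arrays lie within 0.5 of each other, which the test favours.

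The comparison asks which transcripts stand at another level when OsbZIP48 is over-expressed. Of 57258 probe sets, 802 passed (1.40%; limma, Benjamini-Hochberg adjusted p under 0.05), of which 187 (0.327%) were higher and 615 (1.07%) lower in OE. The OE and B4NU arrays did not overlap at any of the 802, 537 differed at least 2-fold, and both groups were at the floor at 85. At 137 of the falls OE was at the floor, and at 30 of the rises B4NU was. At 656 of the calls the OE arrays lay within 0.5 of each other. The gap between the OE arrays enters the spread of the test, so the calls favour probe sets where they agree. Of the 17905 genes, each represented by its brightest probe set, 97 (0.542%) rose and 418 (2.33%) fell. By comparison the groups did not overlap at 2392 genes as higher (13.4%) and at 4519 as lower (25.2%), test or no test.

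The test pools the spread of all 10 arrays, so its p-values do not measure the OE spread alone, and the counts move with single arrays. Without OE replicate 1 the test called 2645 probe sets, 1636 higher and 1009 lower, and without OE replicate 2 it called 12772, where the single OE array left is assumed to vary like the other groups. Leaving out either pANDA array gave 349 calls, and either KD wild-type-like array 451. The 4 arrays fitted alone gave 17 calls, with 3411 probe sets at an unadjusted p under 0.05. Scaling changed the split: 23.3% of the calls were higher as deposited, 36.0% of 1008 after quantile normalization and 43.9% of 3013 after median centring, while the median difference over expressed probe sets moved from -0.23 to 0.025 and 0.047.

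Among 2459 genes with a name, 21 were called higher and 61 lower. Of the 54 called genes picked by the naming rules given under the processing, 14 had another probe set. At 1 of the 14, RAB21, another probe set was called in the same direction, and at 0 in the opposite one. For the others of the 14 the call rests on the brightest probe set alone. The gene lists used below hold 1102 genes in 39 lists, of which 11 genes rose and 40 fell. Calls were only higher in 6 lists, only lower in 20, in both directions in 1 and absent in 12. The lists hold only genes with a matching name and are not whole families. Their counts are to be read against the 0.542% of all genes called higher and the 2.33% called lower.

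**Figure D2:**
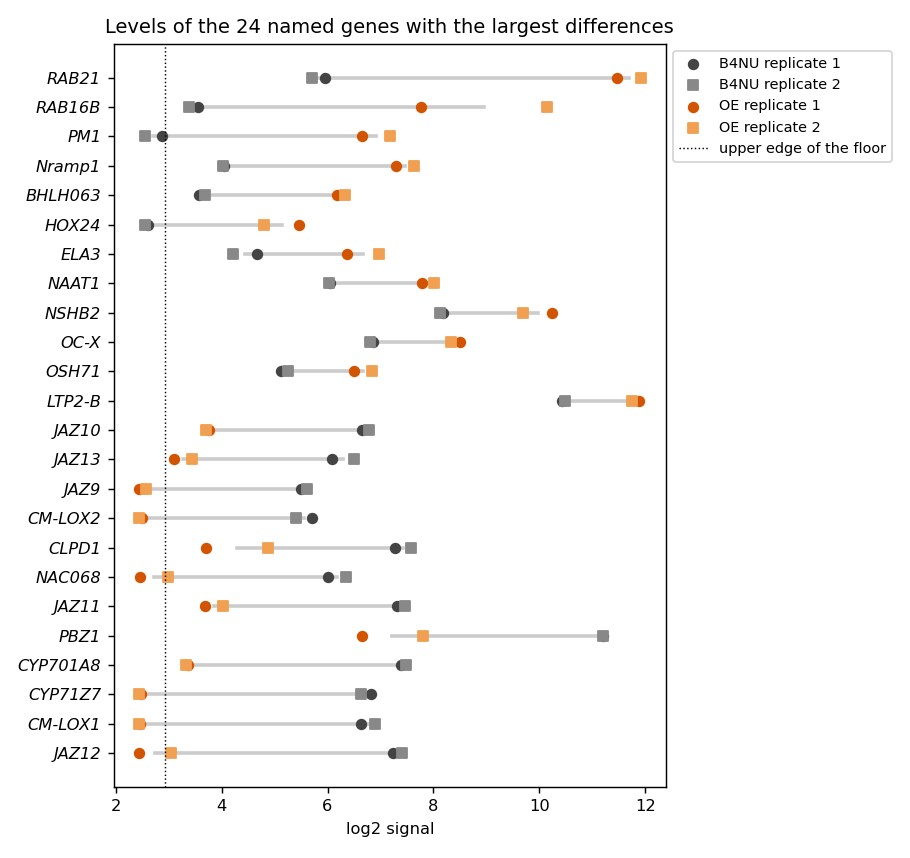
Log2 signal of the 12 named genes with the largest rises and the 12 with the largest falls in OE, 1 row per gene, on the 2 B4NU arrays (grey) and the 2 OE arrays (orange); grey bars join the group means and the dotted line is the upper edge of the floor. The genes were chosen among calls at which the groups do not overlap, so they are apart in every row by choice. For RAB16B OE replicate 1 minus OE replicate 2 is -2.38.

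Dehydrins and late embryogenesis abundant proteins protect cells that lose water, and many of their genes respond to abscisic acid. RAB21 (LOC4350454), a dehydrin gene, had log2 signals of 5.94 and 5.71 in B4NU and 11.47 and 11.91 in OE. Both OE arrays were far above both B4NU arrays, and the difference was 5.87 ± 0.16 (log2, standard error of the fit; adjusted p = 0.000389). RAB16B (LOC4350453), its neighbour in the genome and a close relative, stood at 3.55 and 3.38 in B4NU and 7.77 and 10.15 in OE. The groups were apart, as at every call, but the OE arrays disagreed by more than for RAB21. The difference of 5.50 ± 0.80 passed narrowly (adjusted p = 0.0496). PM1 (LOC4338635), which encodes a membrane protein, stood at 2.88 and 2.55 in B4NU and 6.65 and 7.19 in OE. Its B4NU arrays were at the floor, and it was higher in OE at least 15.8-fold (adjusted p = 0.00399).

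Of the 12 genes of this list, 3 rose and 0 fell, against 0.542% of all genes as higher, and the list median was 0.98 against -0.05 over all genes. RAB16D, another dehydrin of the same tandem group, stood at 2.83 and 2.71 in B4NU and 5.31 and 7.02 in OE and did not pass (adjusted p = 0.115). LEA19, a group 3 late embryogenesis gene, stood at 5.28 and 5.25 in B4NU and 7.12 and 8.57 in OE (adjusted p = 0.0818). SALT, which encodes a mannose-binding lectin, was at 6.97 and 7.07 in B4NU and 7.96 and 8.92 in OE (adjusted p = 0.136). In all of these OE replicate 2 was the higher of the pair and both lay above B4NU. The other 6 genes, RAB16C, Dhn1, DRR1, DRR2, EM and rab25, differed by 0.55 or less in size and did not pass. Without OE replicate 1 the list had 7 rises, against 3.34% of all genes. RAB21 and PM1 passed in all 10 fits that left out 1 array, and RAB16B in 2 (adjusted p up to 0.177). The RAB16 genes are close paralogs, and cross-hybridisation between them is possible.

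Of the 72 genes of abscisic acid synthesis and signalling 0 rose and 1 fell. This is near the 0.542% of all genes called higher and the 2.33% called lower. The gene that fell was OsPP2C61, a protein phosphatase 2C gene, at 5.27 and 5.28 in B4NU and 2.50 and 2.87 in OE (adjusted p = 0.0303). The list median was -0.25.

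Rice takes up iron both as free ferrous iron and, through secreted phytosiderophores, as a chelate, and the genes of this system rise together when iron is short. Nramp1 (LOC4342862), which encodes a metal transporter of the plasma membrane, stood at 4.05 and 4.03 in B4NU and 7.30 and 7.64 in OE. The OE arrays agreed closely and the difference was 3.43 ± 0.23, a 10.8-fold change (adjusted p = 0.00487). BHLH063 (LOC4332972), also listed as IRO3, encodes a helix-loop-helix regulator of the iron deficiency response and stood at 3.56 and 3.69 in B4NU and 6.18 and 6.33 in OE. It rose by 2.63 ± 0.22 (adjusted p = 0.0101). NAAT1 (LOC9267778), the aminotransferase that leads to mugineic acids, stood at 6.05 and 6.02 in B4NU and 7.79 and 8.0 in OE. It rose by 1.86 ± 0.08 (adjusted p = 0.00147), with little spread within either group.

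These were the 3 rises among 34 iron genes, with 0 falls, and all 3 passed in every one of the 10 fits that left out 1 array. The median of the list was 0.01, and of all genes 0.542% were called higher and 2.33% lower. Among the nicotianamine synthase genes, NAS2 stood at 7.09 and 6.94 in B4NU and 7.66 and 8.37 in OE. NAS3 stood at 7.36 and 7.37 in B4NU and 8.20 and 9.58 in OE. NAS1 stood at 9.52 and 9.31 in B4NU and 9.03 and 10.37 in OE. Both OE arrays lay above both B4NU arrays for NAS2 and NAS3, while NAS1 overlapped, and none of the 3 passed (adjusted p = 0.178, 0.284 and 0.96). The vacuolar iron transporter gene VIT1.2 did not pass and stood at 7.07 and 6.86 in B4NU and 4.24 and 5.32 in OE (adjusted p = 0.106). VIT1, its relative, did not pass either and was at 5.23 and 5.51 in B4NU and 4.26 and 4.62 in OE (adjusted p = 0.0647).

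Other rises lay in several families, to be read against the 0.542% of all genes called higher. HOX24, a homeodomain leucine zipper gene, stood at 2.60 and 2.55 in B4NU and 5.46 and 4.80 in OE, with B4NU at the floor, and was at least 4.57-fold higher (adjusted p = 0.0199). OSH71, a KNOX homeobox gene, stood at 5.13 and 5.26 in B4NU and 6.50 and 6.83 in OE and rose by 1.47 ± 0.11 (adjusted p = 0.00678). They were the 2 rises among 46 homeobox genes, with 0 falls, and OSH71 passed in all 10 fits that left out 1 array and HOX24 in 4 (adjusted p up to 0.0786). NSHB2, a non-symbiotic haemoglobin gene, was at 8.18 and 8.12 in B4NU and 10.24 and 9.69 in OE (adjusted p = 0.0496). LTP2-B, a lipid transfer protein gene, was bright in both groups at 10.43 and 10.48 in B4NU and 11.87 and 11.76 in OE (adjusted p = 0.0416). Both of these passed in few of the fits that left out 1 array, 1 and 3 of 10.

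ELA3 stood at 4.67 and 4.21 in B4NU and 6.37 and 6.97 in OE (adjusted p = 0.0246) and OC-X at 6.86 and 6.81 in B4NU and 8.50 and 8.34 in OE (adjusted p = 0.00601). The cell wall invertase gene CIN2, which splits sucrose outside the cell, rose by 1.0 ± 0.07 from a low level, 3.26 and 3.41 in B4NU and 4.34 and 4.33 in OE (adjusted p = 0.00494). In OE the arrays of CIN2 differed by less than in B4NU. CSLC3, a cellulose synthase-like gene of xyloglucan synthesis, rose by 0.79 ± 0.10 (adjusted p = 0.0378). It was the 1 call among 36 genes of cellulose and hemicellulose synthesis, against 0.542% of all genes called higher. PT4, a phosphate transporter gene, was at 2.60 and 2.70 in B4NU and 3.26 and 3.22 in OE (adjusted p = 0.00411). B4NU was at the floor, and PT4 was at least 1.23-fold higher in OE.

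The call with the smallest adjusted p was a gene with no name in the tables, LOC4351985, chosen here after its values were seen. It stood at 2.53 and 2.53 in B4NU and 6.22 and 6.15 in OE. The B4NU arrays were at the floor and the OE arrays within 0.1 of each other, and the gene was at least 9.48-fold higher (adjusted p = 5.69e-07). It was also called when the 4 arrays were fitted alone (adjusted p = 0.0492), which held for 0 of the 82 named genes.

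Jasmonate is a lipid-derived hormone of wounding and defence. JAZ proteins repress its response genes, are destroyed when the hormone is perceived, and their own genes are among those that jasmonate induces. In OE 6 JAZ genes were lower. JAZ12 (LOC4348533) stood at 7.25 and 7.40 in B4NU and 2.44 and 3.04 in OE, a difference of -4.58 ± 0.23 (adjusted p = 0.00272). JAZ11 (LOC4331833) stood at 7.32 and 7.45 in B4NU and 3.69 and 4.02 in OE, or -3.53 ± 0.22 (adjusted p = 0.00451). In both genes OE replicate 1 was the lower of the pair, by 0.60 and 0.33, and the groups were several units apart.

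JAZ10 (LOC4331834) stood at 6.65 and 6.78 in B4NU and 3.76 and 3.70 in OE (adjusted p = 0.00184), and here the OE arrays differed by only 0.06. JAZ9 (LOC4331832) fell to the floor, at 5.49 and 5.61 in B4NU and 2.44 and 2.57 in OE, and was lower at least 6.12-fold (adjusted p = 0.000262). JAZ13 (LOC4348531) stood at 6.08 and 6.49 in B4NU and 3.10 and 3.44 in OE (adjusted p = 0.00499). These 5 genes passed in all 10 fits that left out 1 array. JAZ9, JAZ10 and JAZ11 are direct neighbours in RefSeq gene order, so 3 of the falls come from 1 tandem group. JAZ6 fell less, from 7.67 and 7.83 in B4NU to 5.96 and 6.16 in OE (adjusted p = 0.0199).

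Of 20 genes of jasmonate signalling, 6 fell and 0 rose, against 2.33% of all genes as lower, and the list median was -0.59. The fall did not extend to every JAZ gene. JAZ7 stood at 9.69 and 9.74 in B4NU and 8.67 and 9.33 in OE (adjusted p = 0.311), JAZ3 at 6.63 and 6.66 in B4NU and 5.53 and 6.84 in OE and JAZ8 at 5.92 and 5.96 in B4NU and 5.59 and 6.07 in OE. In these 3 genes OE replicate 2 was within 0.5 of the B4NU arrays while OE replicate 1 was lower. The receptor genes COI1, COI2 and COI1B differed by 0.52, -0.21 and -0.17, and none passed. BHLH148, a helix-loop-helix gene of the jasmonate response, was at 4.41 and 4.53 in B4NU and 2.78 and 2.77 in OE, with both OE arrays at the floor (adjusted p = 0.0666). Without OE replicate 1 the list had 7 falls, against 3.28% of all genes.

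Among 19 genes of jasmonate and oxylipin synthesis 2 fell and 0 rose, against 2.33% of all genes as lower. Both are lipoxygenase genes that lie side by side. CM-LOX1 (LOC4345993) stood at 6.62 and 6.90 in B4NU and 2.46 and 2.44 in OE, and was lower in OE at least 14.1-fold (adjusted p = 0.00324). CM-LOX2 (LOC4345994) stood at 5.71 and 5.40 in B4NU and 2.49 and 2.44 in OE (adjusted p = 0.00293). The OE arrays of both genes were at the floor, so the size is a lower bound, and both passed in all 10 fits that left out 1 array. The other 17 genes did not pass, with differences from -0.81 for opda to 0.29 for OPR-1, both of the oxophytodienoate reductase family. The allene oxide cyclase gene aoc stood at 8.43 and 8.43 in B4NU and 8.53 and 8.59 in OE, and opda at 5.72 and 5.89 in B4NU and 4.44 and 5.54 in OE.

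Diterpenoid phytoalexins are antimicrobial compounds that rice makes on infection, from gene clusters that hold cyclases and cytochrome P450 enzymes. Of 17 such genes, 4 fell and 0 rose, against 2.33% of all genes as lower, with 10 at the floor in OE as in B4NU. CYP71Z7 (LOC4329726) stood at 6.82 and 6.64 in B4NU and 2.47 and 2.44 in OE, and was lower at least 13.8-fold (adjusted p = 0.00323). CYP701A8 (LOC4341343), a P450 gene of the kaurene oxidase family, stood at 7.40 and 7.49 in B4NU and 3.37 and 3.34 in OE, or -4.09 ± 0.26 (adjusted p = 0.00475). KSL7 (LOC4329724), a diterpene cyclase gene, stood at 4.81 and 4.74 in B4NU and 2.70 and 2.44 in OE (adjusted p = 0.00184). These 3 genes were clear in B4NU and at or near the floor in OE, and each passed in all 10 fits that left out 1 array. Against pANDA none of the 3 passed, and CYP701A8 turned direction. KSL7 was at the floor in OE and in pANDA, where values have no order, so it has no direction there.

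CYP76M8, a further P450 gene, was at 3.37 and 3.25 in B4NU and 2.65 and 2.65 in OE (adjusted p = 0.0253), with B4NU a small step above the floor. CPS2, the copalyl diphosphate synthase gene that feeds the cluster, had both OE arrays at the lowest value and stood at 4.90 and 4.14 in B4NU and 2.44 and 2.44 in OE, without passing (adjusted p = 0.0655). KSL7 lies within 3 gene places of both CYP76M8 and CYP71Z7 in RefSeq order. So 3 of the 4 genes that fell lie close together. Over all calls, 44 of 418 genes called lower had another such gene within 3 places (10.5%), against 7.09% of all genes; for the rises it was 4 of 97 (4.12% against 1.68%).

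Among 17 pathogenesis-related genes 1 fell and 0 rose, against 2.33% of all genes as lower, with a median of -0.43. This was PBZ1 (LOC4352491), a gene of the PR10 class, which stood at 11.20 and 11.20 in B4NU and 6.64 and 7.81 in OE. It fell by 3.97 ± 0.43 (log2; adjusted p = 0.0208), with OE replicate 1 lower than OE replicate 2 by 1.17, and passed in 4 of the 10 fits that left out 1 array (adjusted p up to 0.0823). The other 16 genes differed by values from -3.12 for Cht2 to 1.42 for Cht1, both chitinase genes. Cht2 stood at 8.62 and 8.75 in B4NU and 4.55 and 6.57 in OE and did not pass (adjusted p = 0.13), with the OE arrays 2.01 apart. Cht1 stood at 5.20 and 5.33 in B4NU and 5.63 and 7.74 in OE and did not pass either (adjusted p = 0.644). Pir7b, an esterase gene chosen after its values were seen, stood at 9.06 and 9.09 in B4NU and 6.69 and 6.53 in OE (adjusted p = 0.00902). Against pANDA, in the other normalization set, Pir7b turned direction and was called higher, by 1.18 (adjusted p = 0.0177), and PBZ1 turned direction without passing. LOC4352488, a gene without a name 3 places from PBZ1 and chosen after its values were seen, stood at 9.18 and 9.05 in B4NU and 3.73 and 4.33 in OE (adjusted p = 0.0239).

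Transcription factors of stress responses followed. WRKY24 stood at 4.70 and 5.07 in B4NU and 3.13 and 2.55 in OE (adjusted p = 0.0264), and WRKY71 at 6.89 and 6.87 in B4NU and 4.60 and 5.31 in OE (adjusted p = 0.0376). They were the 2 falls among the 6 WRKY genes that a name placed on the list, with 0 rises. Of all genes 2.33% were called lower. Most fits that left out 1 array called neither of them. NAC068 (LOC4327485) stood at 6.0 and 6.36 in B4NU and 2.47 and 3.0 in OE and fell by 3.45 ± 0.24 (adjusted p = 0.00603), while NAC071 went from 7.74 and 7.69 in B4NU to 7.16 and 7.15 in OE (adjusted p = 0.0404). These were 2 of the 8 NAC genes on the list, against 2.33% of all genes as lower. DREB1A, a regulator of the cold response, stood at 4.33 and 4.16 in B4NU and 2.71 and 2.44 in OE, with OE at the floor (adjusted p = 0.00672), the 1 call among 12 genes of its class. NAC068 and DREB1A passed in all 10 fits that left out 1 array, and NAC071 in 3.

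ISAP1, a stress-associated zinc finger gene, stood at 8.60 and 8.50 in B4NU and 6.24 and 5.94 in OE. SAP17, of the same family, stood at 5.29 and 5.25 in B4NU and 3.75 and 3.65 in OE. They were chosen after their values were seen. Both were called lower (adjusted p = 0.0045 and 0.000389). Of 95 genes of calcium-regulated and MAP kinases, 2 fell: CPK4, a calcium-dependent kinase gene, at 8.15 and 8.35 in B4NU and 5.92 and 5.79 in OE (adjusted p = 0.00293), and CIPK31 at 8.31 and 8.82 in B4NU and 7.20 and 7.09 in OE (adjusted p = 0.0409). The first passed in all 10 fits that left out 1 array and the second in 2. A share of 2 in 95 is near the 2.33% of all genes. CYP71P1, which hydroxylates tryptamine to serotonin, stood at 7.56 and 7.60 in B4NU and 4.49 and 5.46 in OE (adjusted p = 0.0304). ASA2, an anthranilate synthase gene of the tryptophan supply, chosen after its values were seen, stood at 5.42 and 5.59 in B4NU and 3.97 and 3.83 in OE (adjusted p = 0.0124).

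**Figure D3:**
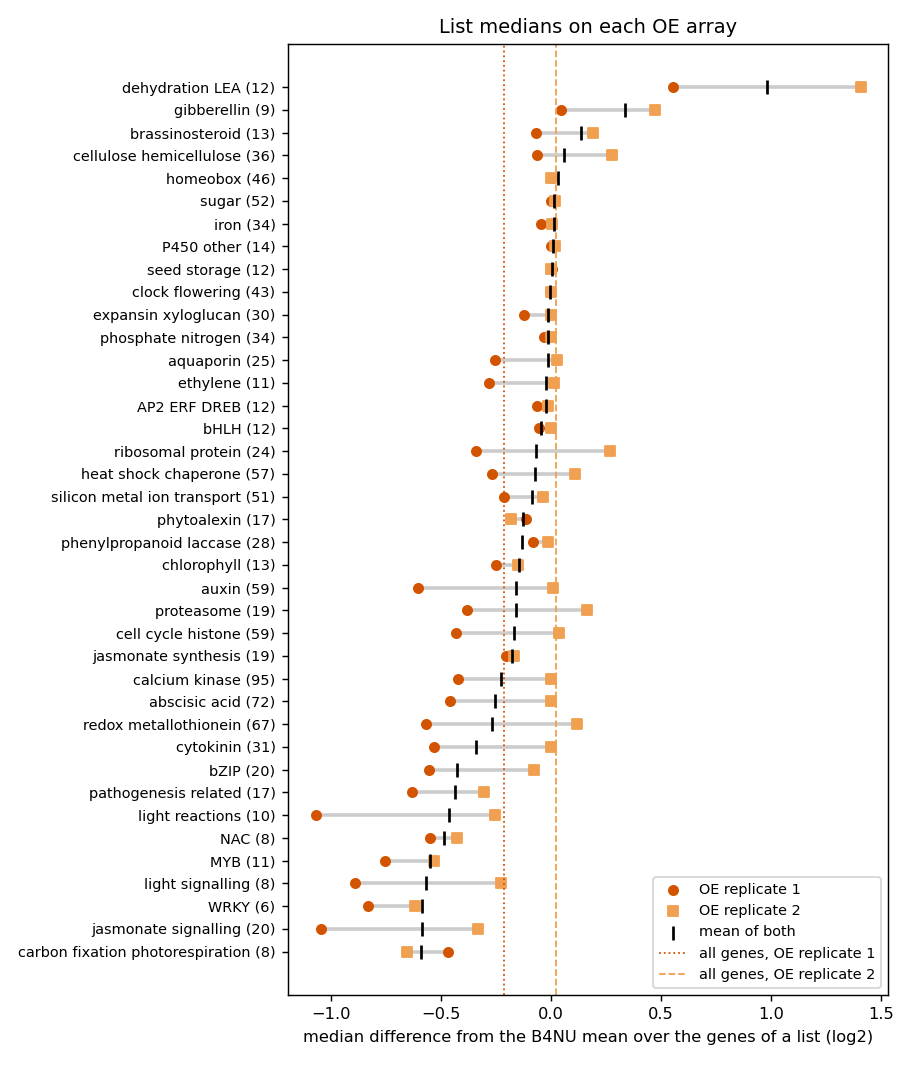
Median log2 difference from the B4NU mean over the genes of each list, on OE replicate 1 (circles), on OE replicate 2 (squares) and for their mean (ticks), with the number of genes in brackets; vertical lines mark the medians over all 17905 genes, -0.21 and 0.03. The dehydration list lies to the right on both arrays, at 0.55 and 1.41, and jasmonate signalling to the left, at -1.04 and -0.33.

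Of 10 genes of the light reactions 0 passed and 0 had a positive difference, where 3973 of all 11988 expressed genes had one. The list median was -0.46, and it was -1.07 on OE replicate 1 and -0.26 on OE replicate 2. Of 8 genes of carbon fixation and photorespiration 2 fell and 0 rose, against 2.33% of all genes as lower, with a median of -0.59. RBCS (LOC4351966), the small subunit of Rubisco, stood at 12.78 and 12.75 in B4NU and 12.05 and 12.09 in OE, a fall by 0.70 ± 0.09 (adjusted p = 0.031). GDCSH, the H protein of glycine decarboxylase, stood at 10.55 and 10.56 in B4NU and 9.08 and 8.82 in OE (adjusted p = 0.0365). OE replicate 2 was the lower one in GDCSH, against the general shift between these arrays. They passed in 3 and 4 of the 10 fits that left out 1 array, and after quantile normalization 0 genes of the list passed.

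GLK1, a transcription factor of chloroplast development, stood at 5.16 and 5.29 in B4NU and 4.71 and 4.67 in OE (adjusted p = 0.0485). It was the 1 call among 8 light signalling genes, against 2.33% of all genes called lower, and the list median was -0.57. After quantile normalization 0 genes of this list passed, and GLK1 differed by -0.25 in place of -0.53. The phytochrome gene PhyB stood at 6.44 and 6.19 in B4NU and 6.20 and 5.60 in OE, and phyC at 5.69 and 5.50 in B4NU and 6.73 and 5.43 in OE. The phytochrome arrays overlapped between groups. Of 13 chlorophyll genes 0 passed. GluTR, the first committed enzyme of the pathway, was at 9.85 and 9.77 in B4NU and 8.37 and 8.19 in OE (adjusted p = 0.0621). CHLP, a geranylgeranyl reductase gene, was at 10.37 and 10.33 in B4NU and 9.78 and 9.51 in OE (adjusted p = 0.0533). LIR1, a light-regulated plastid protein gene chosen after its values were seen, fell from 12.36 and 12.41 in B4NU to 10.51 and 10.96 in OE (adjusted p = 0.033).

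Of 67 redox genes 4 fell and 0 rose, against 2.33% of all genes as lower. APX8, an ascorbate peroxidase of the thylakoid, stood at 9.39 and 9.41 in B4NU and 7.20 and 7.90 in OE (adjusted p = 0.0297). OsTrxf, thioredoxin f of the chloroplast, stood at 9.48 and 9.52 in B4NU and 7.55 and 8.23 in OE (adjusted p = 0.0425). In both, OE replicate 1 was the lower array. The glutaredoxin genes GRXS5 and GRXC10 fell by 1.38 and 1.05 (adjusted p = 0.0376 and 0.0107), on the log2 scale. GRXC10 passed in all 10 fits that left out 1 array, and GRXS5, OsTrxf and APX8 in 3, 2 and 2. CLPD1, a chaperone subunit of the chloroplast, stood at 7.27 and 7.57 in B4NU and 3.71 and 4.88 in OE (adjusted p = 0.0304), and HSP24.1, a small heat shock gene, at 6.17 and 6.25 in B4NU and 4.85 and 4.72 in OE (adjusted p = 0.0268). These were the 2 falls among 57 chaperone genes, with 0 rises, against 2.33% of all genes as lower.

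The calls among the other hormone genes are to be read against the 2.33% of all genes called lower. Of 59 auxin genes 2 fell, PIN5A of the auxin transporter family at 4.63 and 4.25 in B4NU and 2.94 and 2.87 in OE (adjusted p = 0.0116) and GH3.2, which conjugates auxin, at 5.35 and 5.42 in B4NU and 3.94 and 4.27 in OE (adjusted p = 0.0317). Of 31 cytokinin genes 1 fell, LOG, the enzyme that releases active cytokinin, at 6.49 and 6.61 in B4NU and 4.21 and 4.65 in OE (adjusted p = 0.0227). Of 11 ethylene genes 1 fell, the synthesis gene ACS2, at 3.52 and 3.70 in B4NU and 2.55 and 2.53 in OE with OE at the floor (adjusted p = 0.0224). The groups were apart in all 4 genes, as they were at every call. Of 9 gibberellin genes 0 passed and the median was 0.34. CYP701A19, listed also as OsKO2, the kaurene oxidase of gibberellin synthesis, stood at 3.71 and 3.73 in B4NU and 4.39 and 3.72 in OE (adjusted p = 0.644). GA20OX3 was at 4.58 and 4.54 in B4NU and 5.24 and 5.35 in OE (adjusted p = 0.579). Of 13 brassinosteroid genes 0 passed.

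Of the transporters, Lsi1, the silicon channel of the root, fell from 9.37 and 9.42 in B4NU to 8.07 and 7.60 in OE (adjusted p = 0.0256), here with OE replicate 2 as the lower array. It was the 1 call among 51 ion transporter genes and among 25 aquaporins. The list counts here are to be read against the 2.33% of all genes called lower and the 0.542% called higher. A count of 1 in 51 is near that share of falls. SWEET2A, a sugar transporter gene, stood at 7.21 and 7.16 in B4NU and 5.24 and 5.71 in OE (adjusted p = 0.0414). SWEET1B, of the same family, stood at 5.12 and 4.69 in B4NU and 2.96 and 3.47 in OE (adjusted p = 0.0344). Of 52 sugar genes these 2 fell and 1, CIN2, rose. Of 28 genes of phenylpropanoid metabolism 2 fell: the laccase gene LAC24, at 5.51 and 5.53 in B4NU and 3.79 and 4.0 in OE (adjusted p = 0.00635), and the alcohol dehydrogenase gene CAD8C, at 8.79 and 8.74 in B4NU and 6.94 and 7.47 in OE (adjusted p = 0.0257). Against pANDA LAC24 turned direction and was called higher, by 0.66 (adjusted p = 0.0202). LAC24 passed in all 10 fits that left out 1 array and CAD8C, SWEET2A, SWEET1B and Lsi1 in 2, 3, 2 and 2.

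Of the 20 bZIP genes on the list, the family of OsbZIP48 itself, 0 passed, with a median of -0.43. TGAL1 stood at 3.84 and 3.83 in B4NU and 5.57 and 4.67 in OE and BZIP50 at 6.61 and 6.49 in B4NU and 5.53 and 5.90 in OE (adjusted p = 0.369 and 0.119). Also without a call were 11 MYB genes, 43 clock and flowering genes, 30 expansin and xyloglucan genes, 19 proteasome, 24 ribosomal protein, 59 cell cycle and histone and 12 seed storage genes. On OE replicate 1 the medians of the ribosomal, proteasome and cell cycle lists were -0.34, -0.38 and -0.43, and on OE replicate 2 they were 0.27, 0.16 and 0.04. These lists thus changed side between the OE arrays, as did the median over all genes.

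Further named calls were chosen after their values were seen. DXPS, of the plastid isoprenoid pathway, stood at 4.50 and 4.69 in B4NU and 3.08 and 2.90 in OE (adjusted p = 0.00902), and PSK4, which encodes a phytosulfokine peptide precursor, at 6.44 and 6.40 in B4NU and 3.28 and 4.22 in OE (adjusted p = 0.024). DUR3, a urea transporter gene, passed with both groups at the floor, at 2.52 and 2.52 in B4NU and 2.46 and 2.46 in OE (adjusted p = 0.0367), where values have no order. PSK4 fell more on OE replicate 1. Rbr1, a retinoblastoma-related gene of cell cycle control, rose slightly, from 3.26 and 3.29 in B4NU to 3.60 and 3.67 in OE (adjusted p = 0.0438). BGLU16, a beta-glucosidase gene, stood at 3.96 and 3.96 in B4NU and 3.26 and 3.07 in OE (adjusted p = 0.0405), and PEX11-1, a gene of peroxisome division, at 10.19 and 10.23 in B4NU and 9.03 and 9.25 in OE (adjusted p = 0.0101). At the other 5 genes the groups did not overlap, as at every call. Of their arrays only OE replicate 2 of DXPS, at 2.90, lay within the floor.

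At some genes the OE arrays disagreed outright, and the mean of the group describes neither of them. CYCB2-2, a mitotic cyclin gene, stood at 6.52 and 6.25 in B4NU and 2.55 and 6.85 in OE. ADIPOR1 stood at 6.88 and 6.84 in B4NU and 3.62 and 7.52 in OE, and SNRK1B, a kinase gene of energy signalling, at 7.71 and 7.60 in B4NU and 4.41 and 7.77 in OE. In these 3 genes OE replicate 2 was near the B4NU level or above it and OE replicate 1 several units below. GRXS10 and HAP5D had the same form, with OE replicate 1 lower than OE replicate 2 by 3.27 and 3.11.

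The reverse was seen for PORA, a protochlorophyllide reductase gene of greening, at 6.92 and 7.08 in B4NU and 9.46 and 6.85 in OE. EXLA1, an expansin-like gene, stood at 8.82 and 9.07 in B4NU and 9.65 and 7.47 in OE, and ZIP2, a zinc transporter gene, at 4.51 and 4.77 in B4NU and 6.02 and 3.99 in OE. Here OE replicate 1 was above the B4NU arrays while OE replicate 2 was at or below them. A prolamin gene, which encodes a seed storage protein, was at 4.45 on OE replicate 1 and at 2.51 on each of the other 3 arrays, and OsC3H49 stood at 4.48 and 4.77 in B4NU and 6.99 and 4.82 in OE. None of these 10 genes, named for the largest disagreement in each direction, passed the test.

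The OE difference was then set against that of KD wild-type-like from pANDA, which shares no array with it. The difference of the differences passed at 377 probe sets (0.658%), 117 higher and 260 lower in OE, and at 221 genes (1.23%); 277 of the 377 were also called in OE against B4NU. Without OE replicate 1 it passed at 1994 probe sets and without OE replicate 2 at 9872. Leaving out a KD wild-type-like array gave 2286 or 1717, and leaving out a pANDA array 1187 or 935. Of the 82 named genes called in OE it passed at 28, of which 6 had risen and 22 had fallen. Both tests hold OE minus B4NU from the same arrays. The overlap of their calls and the direction at called genes are therefore partly set by the choice of genes. No conclusion is drawn from them.

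The 3 dehydration genes were also higher in the knock-down seedlings. RAB21 differed from pANDA by 6.32 in KD wild-type-like, RAB16B by 3.05 and PM1 by 1.72. The difference of the differences was -0.45 ± 0.23 for RAB21 (adjusted p = 0.789), 2.44 ± 1.13 for RAB16B (adjusted p = 0.789) and 2.48 ± 0.34 for PM1 (adjusted p = 0.0657). None of the 3 passed as different, and RAB21 stood above the vector in both comparisons. Of the iron genes, Nramp1 differed by -0.46 in the knock-down, NAAT1 by -0.08 and BHLH063 by 0.17. The difference of the differences passed for Nramp1 and NAAT1, at 3.90 ± 0.32 (adjusted p = 0.0153) and 1.94 ± 0.11 (adjusted p = 0.00602), and did not pass for BHLH063, at 2.45 ± 0.32 (adjusted p = 0.0528).

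Of the 61 named genes that fell in OE, 22 passed as different, all with the lower difference in OE, a direction that choosing falls favours. JAZ12 differed by -0.39 in KD wild-type-like, JAZ10 by -0.36 and JAZ9 by -1.37, the same sign as in OE and smaller. Their differences of differences were -4.20 ± 0.32 (adjusted p = 0.0132), -2.62 ± 0.19 (adjusted p = 0.0112) and -1.68 ± 0.10 (adjusted p = 0.00799). CYP71Z7 and CYP701A8 differed by -0.21 and -0.05 in the knock-down, where CYP71Z7 was at the floor in pANDA and CYP701A8 stood at 2.96, just above it, so that a fall could not be measured. For GLK1 and BURP16 the signs were opposite: GLK1 differed by -0.53 in OE and 0.55 in the knock-down (adjusted p = 0.0258), and BURP16, chosen after its values were seen, by -1.69 and 2.01 (adjusted p = 0.00728). Over all probe sets called higher in OE 43.3% had a positive knock-down difference and 47.1% a negative one. Over those called lower 56.3% had a negative and 41.8% a positive one. Of expressed probe sets 48.3% were positive and 51.7% negative. The sets are unlike: the called ones include probe sets at the floor, and the rest of their differences were exactly 0.

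**Figure D4:**
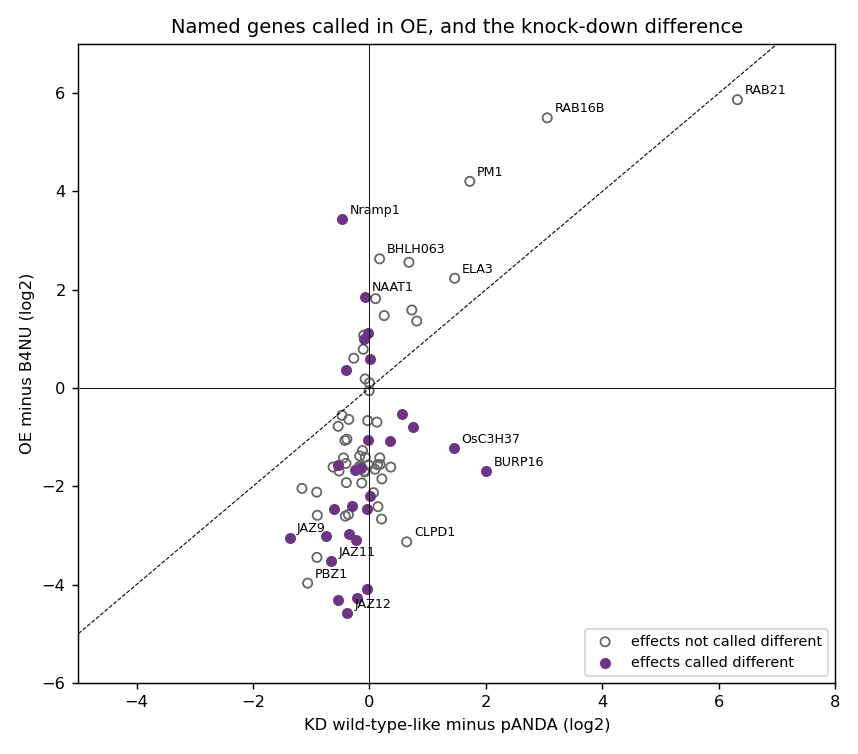
Log2 difference of OE from B4NU (vertical) against that of KD wild-type-like from pANDA (horizontal) for the 82 named genes called in OE; filled points are the 28 at which the 2 differences themselves differ (adjusted p under 0.05) and the dashed line marks equal differences. RAB21 lies near the line at 6.32 and 5.87, while Nramp1, JAZ12 and CYP701A8 lie near the vertical axis.

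OE was also set against the other vector. The pANDA arrays were normalized in another set, and the effect of the vector cannot be told apart from that of the set. With pANDA in place of B4NU, 62 of the 82 named genes were called in the same direction. JAZ13 and JAZ10 averaged 11.21 and 11.12 in pANDA, well above B4NU, so OE was the low group against either vector. RAB21 averaged 3.81 in pANDA and was again far lower than in OE. Among the defence genes, PBZ1 averaged 6.61 in pANDA, CYP701A8 2.96, CYP71Z7 2.80 and KSL7 2.45, near their OE levels and far below B4NU. Against pANDA these 4 differed by 0.62, 0.40, -0.34 and 0.13, and none passed (adjusted p = 0.401, 0.38, 0.392 and 0.459). Of 17 phytoalexin genes 0 fell and 0 rose against pANDA, and of the 20 jasmonate signalling genes 9 fell and 2 rose. Of all genes 7.93% were called lower and 10.4% higher against pANDA. CYP71Z7, KSL7 and CYP701A8 were at or just above the floor in pANDA, so a fall below it could not be measured.

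**Figure D5:**
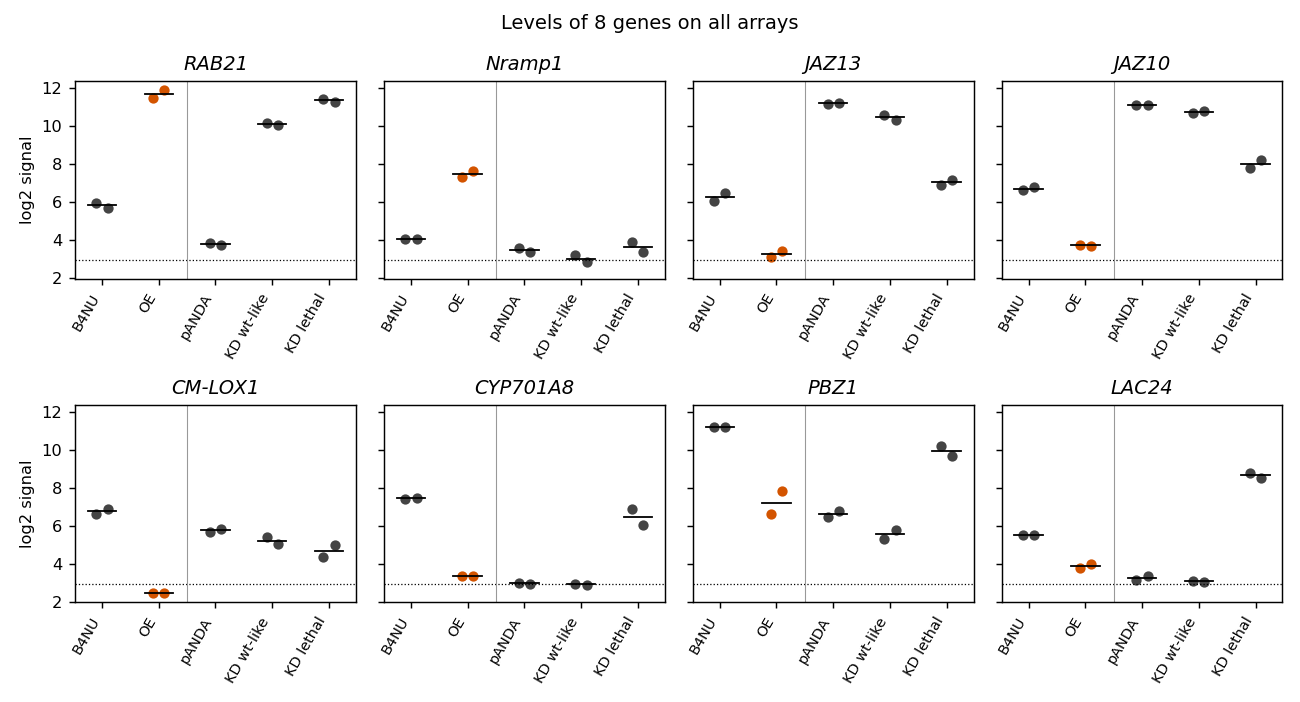
Log2 signal of 8 genes on every array, by group, with a bar at each group mean; OE is in orange, the vertical line separates the 2 normalization sets and the dotted line is the upper edge of the floor. RAB21 is high in OE and in both knock-down groups, JAZ13 and JAZ10 are lowest in OE, and CYP701A8 and PBZ1 are high in B4NU and KD lethal.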

How the data were processed

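Transcripts of 10 samples, 2 biological replicates in each of 5 groups, were hybridised to Affymetrix rice arrays of 1 colour. The values are log2 signals of probe sets, deposited by the authors in 1 table; log2 was inferred from their range. Per the submitters' processing notes, the software was GCOS with Affymetrix Expression Console 1.4.1.46. How probes were summarized and arrays normalized is not given in sources used here. The arrays of B4NU and OE share a lowest value of 2.440, and all others 2.441, so they were treated as 2 normalization sets. No further normalization was applied. An array has no read depth, and the number of arrays limits the precision.

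Of 57381 probe sets, 57258 were tested, without the 123 controls. By the platform annotation, 22436 had 1 gene, 95 several and 34727 none. For each of 17905 genes the brightest probe set, by its mean over the 10 arrays, was taken. Names are the symbol or synonym in the RefSeq table of assembly ASM3414082v1 (2459 genes), used for names and gene order only; synonyms were needed because most symbols are locus numbers, and 85 wrong matches to the lists were removed.

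A linear model with a coefficient per group was fitted to all 10 arrays with limma 3.58.1 in R 4.3.3 (lmFit, eBayes, two-sided), after a test on simulated data. A probe set was called at a Benjamini-Hochberg adjusted p under 0.05 over all probe sets. Values at the floor have no order, and a fold against a group at the floor is a lower bound computed against the floor's upper edge, 0.5 above the lowest value. The names printed are a selection from the 12 largest rises and 12 largest falls, up to 4 called genes per list, and the 5 genes per direction with the largest disagreement between the OE arrays while the B4NU arrays lay within 0.5; other genes, uncalled members of the lists included, were chosen after their values were seen. The gene lists and comparisons were chosen with earlier results of these data known. The alternatives were other scalings, variance priors, weights, filters, controls and replicate blocks, and each array left out in turn. Leaving out an array also takes the spread of its group out of the test.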

Additional observations from a re-analysis of the deposited data

Results flagged for a closer look

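The genes here stood out because the OE difference from B4NU and the KD wild-type-like difference from pANDA were unequal by the test of the difference itself (limma, adjusted over all probe sets). They were picked among the genes called in OE, which favours passing because both tests hold OE minus B4NU. Each value below is on the log2 scale.

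Of the named genes that rose, 6 passed this test. Nramp1 differed by 3.43 in OE and -0.46 in the knock-down, a difference of 3.90 (adjusted p = 0.0153). NAAT1 differed by 1.86 in OE and -0.08 in the knock-down, a difference of 1.94 (adjusted p = 0.00602). CIN2 differed by 1.00 in OE and -0.09 in the knock-down, a difference of 1.09 (adjusted p = 0.0166). BURP3 differed by 1.13 in OE and -0.03 in the knock-down, a difference of 1.15 (adjusted p = 0.0153). Rbr1 differed by 0.36 in OE and -0.40 in the knock-down, a difference of 0.76 (adjusted p = 0.0218). PT4 differed by 0.59 in OE and 0.00 in the knock-down, a difference of 0.59 (adjusted p = 0.0166). PT4 was at the floor in B4NU, pANDA and KD wild-type-like, where values have no order, so its difference is not measured on both sides. The knock-down differences of these 6 genes were 0 or negative at 2 decimals, and none exceeded 0.46 in size. The unnamed gene LOC4351985, which had the smallest adjusted p, was at the floor in B4NU, pANDA and KD wild-type-like as well. LOC4351985 differed by 3.65 in OE and -0.01 in the knock-down, a difference of 3.66 (adjusted p = 3.33e-06).

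Among the falls, the JAZ genes had knock-down differences of the same sign and smaller size. JAZ12 differed by -4.58 in OE and -0.39 in the knock-down, a difference of -4.20 (adjusted p = 0.0132). JAZ11 differed by -3.53 in OE and -0.66 in the knock-down, a difference of -2.87 (adjusted p = 0.0317). JAZ10 differed by -2.98 in OE and -0.36 in the knock-down, a difference of -2.62 (adjusted p = 0.0112). JAZ13 differed by -3.02 in OE and -0.75 in the knock-down, a difference of -2.27 (adjusted p = 0.0487). JAZ9 differed by -3.05 in OE and -1.37 in the knock-down, a difference of -1.68 (adjusted p = 0.00799). The lipoxygenase gene CM-LOX1 had the same form. CM-LOX1 differed by -4.31 in OE and -0.53 in the knock-down, a difference of -3.78 (adjusted p = 0.0169). Its neighbour CM-LOX2 was at the floor in pANDA, so that a fall in the knock-down could not be measured. CM-LOX2 differed by -3.09 in OE and -0.23 in the knock-down, a difference of -2.86 (adjusted p = 0.015).

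The phytoalexin genes were at or just above the floor in pANDA, where a fall in the knock-down could not be measured. CYP71Z7 differed by -4.27 in OE and -0.21 in the knock-down, a difference of -4.06 (adjusted p = 0.0148). CYP701A8 differed by -4.09 in OE and -0.05 in the knock-down, a difference of -4.04 (adjusted p = 0.0192). KSL7 differed by -2.21 in OE and 0.01 in the knock-down, a difference of -2.22 (adjusted p = 0.00805). Further genes that fell in OE followed. Pir7b differed by -2.46 in OE and -0.04 in the knock-down, a difference of -2.43 (adjusted p = 0.0394). LAC24 differed by -1.63 in OE and -0.14 in the knock-down, a difference of -1.48 (adjusted p = 0.035). It stood at 3.23 in pANDA, near the floor, so a large fall in the knock-down could not be measured. CPK4 differed by -2.39 in OE and -0.30 in the knock-down, a difference of -2.10 (adjusted p = 0.0165). ISAP1 differed by -2.47 in OE and -0.61 in the knock-down, a difference of -1.85 (adjusted p = 0.0398). SAP17 differed by -1.57 in OE and -0.54 in the knock-down, a difference of -1.04 (adjusted p = 0.00728). DREB1A differed by -1.67 in OE and -0.25 in the knock-down, a difference of -1.42 (adjusted p = 0.0454). GRXC10 differed by -1.05 in OE and -0.03 in the knock-down, a difference of -1.02 (adjusted p = 0.0489). LOC4326659, a gene without a name and on none of the lists, differed by -5.07 in OE and -0.22 in the knock-down. The difference was -4.85 (adjusted p = 0.00663). This gene stood at 3.37 in pANDA, near the floor, so a large fall in the knock-down could not be measured.

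At the remaining 5 genes a fall in OE stood beside a positive difference in the knock-down. BURP16 differed by -1.69 in OE and 2.01 in the knock-down, a difference of -3.70 (adjusted p = 0.00728). OsC3H37 differed by -1.23 in OE and 1.45 in the knock-down, a difference of -2.68 (adjusted p = 0.0127). PEX11-1 differed by -1.07 in OE and 0.36 in the knock-down, a difference of -1.43 (adjusted p = 0.0187). BGLU16 differed by -0.80 in OE and 0.75 in the knock-down, a difference of -1.54 (adjusted p = 0.0249). GLK1 differed by -0.53 in OE and 0.55 in the knock-down, a difference of -1.09 (adjusted p = 0.0258).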

How the results depend on the processing

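Counts are of probe sets called in OE against B4NU, with those of the OE against knock-down test after them. Of the 802 calls (187 higher, 615 lower; 377 in the second test), the 4 arrays alone gave 17 (6 and 11), array weights 83 (27 and 56; 89), median centring 3013 (1324 and 1689; 1542), the filter on dim probe sets 1242 (146 and 1096), pANDA as control 7865 (5027 and 2838) and both vectors as control 4148 (2227 and 1921). Quantile normalization gave 363 as higher, and the 2-fold rule 70. Taking the mean of a gene's probe sets gave 988 genes called in place of 515. Leaving out 1 array in turn gave 349 to 12772 calls, 86 to 7139 higher, 263 to 5633 lower, and 346 to 9872 in the second test; leaving out B4NU replicate 1 or 2 gave 835 or 841. An alternative added after seeing the data, without OE replicate 1 and KD lethal replicate 2, gave 4003 (2590 and 1413; 3294). The variance priors with trend and robust gave 798 and 739. The cause of these changes was not tested.

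With the replicate number as a block the counts were 423 (95 and 328; 108). The deviations of same-numbered B4NU and OE arrays correlated at -0.24 across probe sets, and other pairs of groups at -0.57 to 0.31, so the samples share only a number. The crossed block, added after seeing the data, gave 471 (104 and 367; 179).

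Of the 82 named genes called, 32 were called in all 10 fits that left out 1 array, 9 with array weights, 54 after quantile normalization and 0 with the 4 arrays alone. Against pANDA, 7 genes changed sign: PBZ1 (0.62), Pir7b (1.18), BURP16 (0.41), LAC24 (0.66), MIA40 (0.37), CYP701A8 (0.40) and KSL7 (0.13), of which Pir7b (adjusted p = 0.0177) and LAC24 (adjusted p = 0.0202) passed as higher. KSL7 was at the floor in OE and in pANDA, where values have no order, so its sign has no meaning. After median centring DUR3 changed sign (0.22). Values near the floor limit the size of differences that the arrays show.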
